A study of Mus musculus with 9 samples.

Results

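Perilipins are the proteins that coat lipid droplets, and a small group of enzymes and secreted factors sets how far a cell burns fat in place of glucose. Messenger RNA of 9 such genes was followed in the dLGN (dorsal lateral geniculate nucleus), where the thalamus passes signals of the retina on to visual cortex: the perilipins Plin2, Plin3, Plin4 and Plin5, the pyruvate dehydrogenase kinases Pdk1, Pdk2 and Pdk4, the carnitine palmitoyltransferase Cpt1a and the lipase inhibitor Angptl4. They are 9 of the 19703 genes held by the tables of both comparisons with 0 h. The set was chosen by a measured value: Plin4 had the highest log2 fold change of the 15330 genes tested at 8 h of light against 0 h. Its values in that comparison are therefore a description, and the other members were added for their related roles.

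The 9 libraries came from wild-type C57BL/6J mice of both sexes, aged 27 postnatal days, that were kept in the dark from postnatal day 20 to day 27. Mice were then given light for 0 h, 1 h or 8 h, with 3 libraries per light time. All groups, the 0 h controls included, had been through the dark week, and no group of mice raised in ordinary light is used here. Per the labels, 3 mice per light time gave an independent sample each; the labels do not tie a sex to a library. The dLGN was cut out of brain slices under a dissecting microscope, frozen whole and sequenced as total RNA without ribosomal RNA, so in these bulk samples fewer cells of a type and less RNA per cell cannot be told apart.

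Perilipins decide which lipases reach a droplet. Plin2 and Plin3 coat droplets in nearly every tissue, Plin5 belongs to tissues that oxidise much fat and ties droplets to mitochondria, and Plin4 is best known from fat cells and muscle. Pyruvate dehydrogenase kinases switch off the enzyme complex that feeds glucose carbon into the citric acid cycle, and Pdk4 is the isoform that fasting raises in muscle and liver. Cpt1a places long-chain fatty acids on carnitine for entry into mitochondria, and Angptl4 is a secreted inhibitor of lipoprotein lipase, the enzyme that frees fatty acids from circulating fat. The brain runs mainly on glucose, and in it droplets and fat oxidation are mostly described in glia.

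Total counts ran from 5.73 to 18.4 M reads at 0 h, from 8.77 to 17.7 M at 1 h and from 17.4 to 22.6 M at 8 h. With 3 reads as the floor, the lowest level counted as detected ran from 0.133 to 0.524 CPM (counts per 1 M reads), counting error only. These floors are over total counts, while all levels in CPM below are TMM scaled. Markers of thalamic relay neurons (7 of 7 measured) summed to 4166 to 4484 CPM at 0 h, 4260 to 4840 CPM at 1 h and 4621 to 4983 CPM at 8 h. Microglia markers (7 of 7) summed to 247 to 259 CPM at 0 h, 232 to 242 CPM at 1 h and 218 to 234 CPM at 8 h. In both lists the sums at 8 h and 0 h did not overlap, higher at 8 h for relay neurons and lower for microglia. The part of these shifts in the levels of the members was not tested. Astrocyte markers (10 of 10) summed to between 4331 and 4931 CPM in the 9 libraries. Of 6 fat cell markers only Adipor2 and Retn have values here. Retn, a hormone of mouse fat cells, had at most 0.215 CPM in any library. Adipor2, an adiponectin receptor that many tissues express, ranged from 80.2 to 126.5 CPM and was higher at 8 h, with a log2 fold change of 0.54 against 0 h (edgeR adjusted p = 0.00256); its part in the perilipin results was not tested. The list of cortical and hippocampal neurons summed highest in 0 h replicate 2 and 1 h replicate 1, the 2 libraries of highest Neurod6. These sums were 680 and 597 CPM, against 362 to 526 CPM in the others. Most of each sum is Slc17a7, at 358 to 636 CPM, so the sum does not measure RNA from outside the dLGN. Neurod6 had a median of 0.430 and at most 18.2 CPM, and Neurod2 a median of 0.798 and at most 16.5 CPM.

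Plin4 lies on chromosome 17, from 56100587 to 56109955 on the minus strand of GRCm38, with 6974 exonic bases in 8 exons in the deposited tables. Its coding sequence is built from a tandem repeat of 99 bases. Shifted by 99 bases, the coding sequence of the GENCODE transcript used matched itself at 58.4% of positions, against 30.5% for Plin2, 33.4% for Plin3 and 31.4% for Plin5 at their best shifts. Units at least 80% identical to the next one made up 53.7% of its 4209 coding bases. The 3 neighbouring units printed come from exon 5 of the 9 exons of that GENCODE transcript. They are shown because they bear on how reads of this gene can be counted. They span chr17:56106127-56106423 and are written 5′ to 3′ on the minus strand, with capitals where a base departs from unit 1.
unit 1: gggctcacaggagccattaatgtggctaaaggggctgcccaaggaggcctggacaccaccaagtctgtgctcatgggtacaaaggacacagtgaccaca
unit 2: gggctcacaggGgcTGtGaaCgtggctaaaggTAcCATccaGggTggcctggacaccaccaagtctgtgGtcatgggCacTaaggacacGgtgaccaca
unit 3: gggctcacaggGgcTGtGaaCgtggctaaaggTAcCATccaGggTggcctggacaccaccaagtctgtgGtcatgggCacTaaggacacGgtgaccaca
Units 2 and 3 are the same in all 99 bases, and each departs from unit 1 at 16. Over the transcript, 12.2% of 75-base windows and 17.4% of 50-base windows occur more than once in it, against 0 in Plin2, Plin3 and Plin5. The sources used here do not give how reads with several matches were counted. The part of this in Plin4 levels was not tested.

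Plin4 was close to the floor after a week of darkness and lower still after 1 h of light. It had 4, 19 and 16 reads at 0 h, 4, 9 and 9 reads at 1 h, and 127, 255 and 131 reads at 8 h. Scaled for library size, these are 0.679, 1.02 and 1.06 CPM at 0 h, 0.453, 0.530 and 0.513 CPM at 1 h, and 5.75, 13.7 and 7.50 CPM at 8 h. Every 8 h library stood above every other library, and every 1 h library below every 0 h library. The 8 h libraries also spread most, with a standard deviation of 46.5% of their mean, against 8.07% at 1 h and 22.8% at 0 h.

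At 8 h, Plin4 averaged 8.98 ± 4.17 CPM, against 0.919 ± 0.209 CPM at 0 h (n = 3 each, SD). The log2 fold change was 3.18, with a 95% interval of 2.36 to 4.01; this and the other intervals are not adjusted for the number of genes. At 1 h it averaged 0.498 ± 0.0402 CPM, against the same 0.919 ± 0.209 CPM at 0 h, a log2 fold change of -0.93 ± 0.35 (SE) that did not pass the test (edgeR quasi-likelihood test, adjusted p = 1.00; unadjusted p = 0.0245). Set against 1 h, the 8 h level was 17.4 times as high, with a log2 fold change of 4.12 ± 0.37 (SE; 95% interval 3.32 to 4.93; edgeR adjusted p = 0.000434). That comparison shares the 8 h libraries, and that of 1 h shares the 0 h libraries, with the one that chose Plin4, so neither is independent of the choice. The authors' deposited table gives Plin4 a fold of 9.24 for 8 h over 0 h and of 0.525 for 1 h over 0 h.

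The library with the most Plin4, 8 h replicate 2, also had the highest sums of markers of meningeal cells, the fibroblasts of the brain's coverings, and of blood. Meningeal markers (6 of 6 measured, none at 0) summed to 314, 434 and 212 CPM in 8 h replicates 1 to 3, against 338, 308 and 289 CPM at 0 h. At 1 h the meningeal sums were 310, 252 and 296 CPM. Much of each meningeal sum is Ptgds, at 120.5 to 287.2 CPM, against at most 62.0 CPM for Col1a2, the next highest marker. The sum thus does not measure RNA of meningeal fibroblasts. Blood markers (6 of 6) summed to 123, 187 and 122 CPM at 8 h, against 164, 128 and 101 CPM at 0 h. At 1 h, where Plin4 was lowest, the blood sums were 173, 161 and 157 CPM. The part of either in the Plin4 level was not tested. Without 8 h replicate 2, the log2 fold change of Plin4 was 2.75 against 0 h and 3.69 against 1 h.

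**Figure D1:**
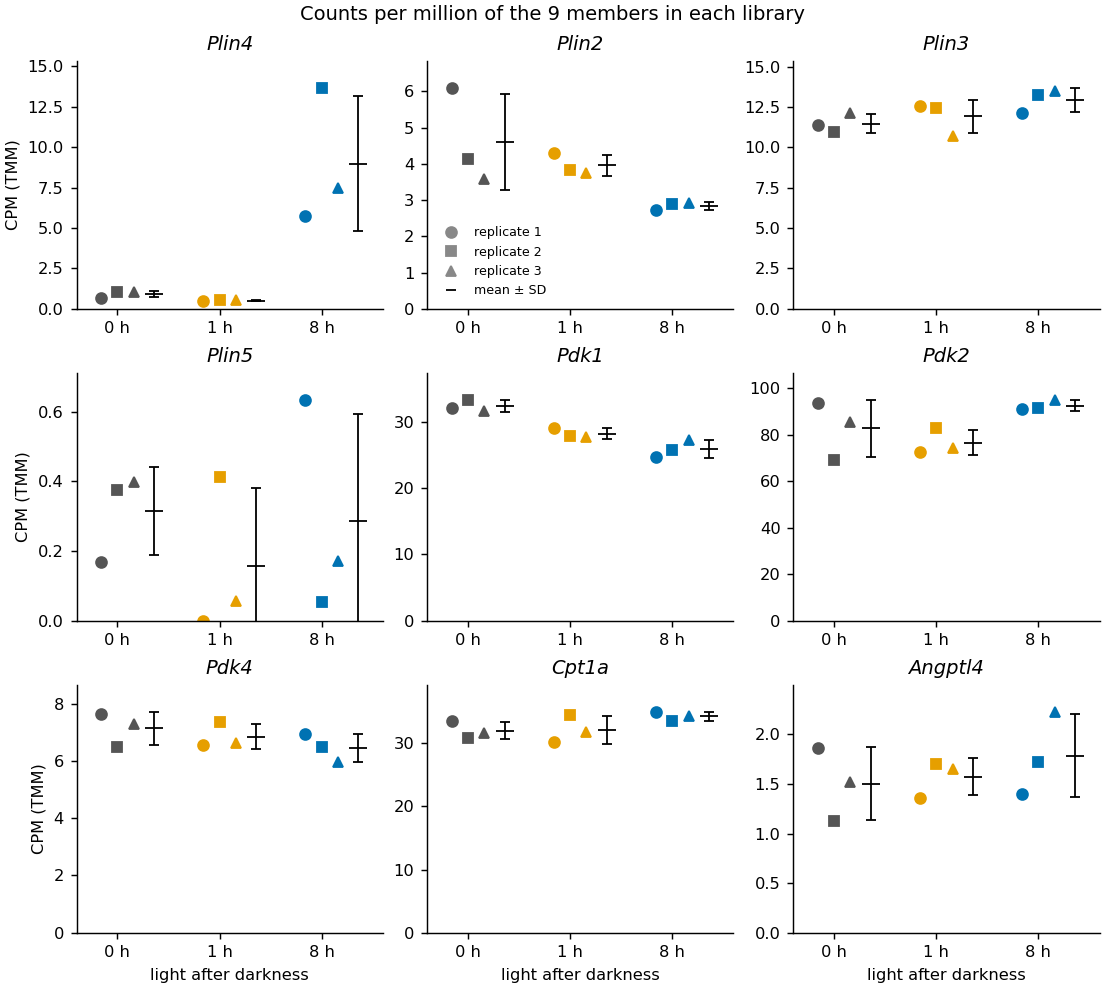
CPM (TMM scaled, linear axes from 0) of each of the 9 members in the 9 libraries at 0, 1 and 8 h of light; symbols are replicates 1 to 3 and the black mark is the mean ± SD of 3 libraries, drawn down to 0 at most. Plin4 at 8 h sits between 5.75 and 13.7 CPM, above all other libraries, while Plin3, Pdk4 and Angptl4 overlap across light times.

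Plin2, the droplet coat of most cells, stood lowest at 8 h. It had 6.11, 4.13 and 3.57 CPM at 0 h, 4.30, 3.82 and 3.76 CPM at 1 h, and 2.72, 2.90 and 2.92 CPM at 8 h. The 8 h libraries lay below all 6 others, on 51 to 60 reads each. At 8 h it averaged 2.85 ± 0.110 CPM, against 4.60 ± 1.33 CPM at 0 h (n = 3 each, SD). Its log2 fold change was -0.64 ± 0.22 (SE), and it was not among the genes called in that comparison. Against 1 h, whose libraries averaged 3.96 ± 0.297 CPM, its log2 fold change at 8 h was -0.47 ± 0.20 (SE; edgeR adjusted p = 0.518).

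Plin3, a coat that is soluble in the cytosol and binds young droplets, was the most abundant perilipin. It had 11.4, 11.0 and 12.1 CPM at 0 h, 12.6, 12.5 and 10.7 CPM at 1 h, and 12.1, 13.3 and 13.5 CPM at 8 h. The 3 light times overlapped. Its log2 fold change was 0.17 at 8 h against 0 h, 0.12 at 8 h against 1 h (95% interval -0.11 to 0.35) and 0.05 at 1 h against 0 h (95% interval -0.23 to 0.32).

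Plin5 was at the edge of detection and failed the filter on low counts, so it was left out of the 3 comparisons as fitted here. It had 1, 7 and 6 reads at 0 h, 0, 7 and 1 reads at 1 h, and 14, 1 and 3 reads at 8 h. The 14 reads of 8 h replicate 1 stand alone, and the 0 reads of 1 h replicate 1 allow up to 0.342 CPM before TMM scaling. Without that filter Plin5 was tested and not called, with an edgeR adjusted p of 0.966 at 8 h against 0 h, 0.917 at 8 h against 1 h and 1.00 at 1 h against 0 h.

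Levels of different genes were compared per kilobase of exonic length. At 0 h, Plin3 had 5.31 ± 0.273 and Plin2 had 2.31 ± 0.667 CPM per kb, with Plin5 and Plin4 at 0.150 ± 0.0598 and 0.132 ± 0.0300 CPM per kb (SD, n = 3). At 1 h the order of the first 2 was the same, with 5.52 ± 0.485 CPM per kb of Plin3 and 1.98 ± 0.149 of Plin2, and Plin4 stood at 0.0715 ± 0.00577 CPM per kb. At 8 h Plin4 reached 1.29 ± 0.598 CPM per kb, within whose range of 0.825 to 1.96 lay the 1.36 to 1.46 CPM per kb of Plin2. Plin3 stayed above both, at 6.00 ± 0.348 CPM per kb. Of the summed perilipin level per length, Plin4 made up 1.69 ± 0.471% at 0 h, 0.940 ± 0.126% at 1 h and 14.3 ± 5.47% at 8 h. Plin2 made up 28.9 ± 6.51%, 26.0 ± 1.69% and 16.2 ± 0.882% at the same times (SD, n = 3).

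**Figure D2:**
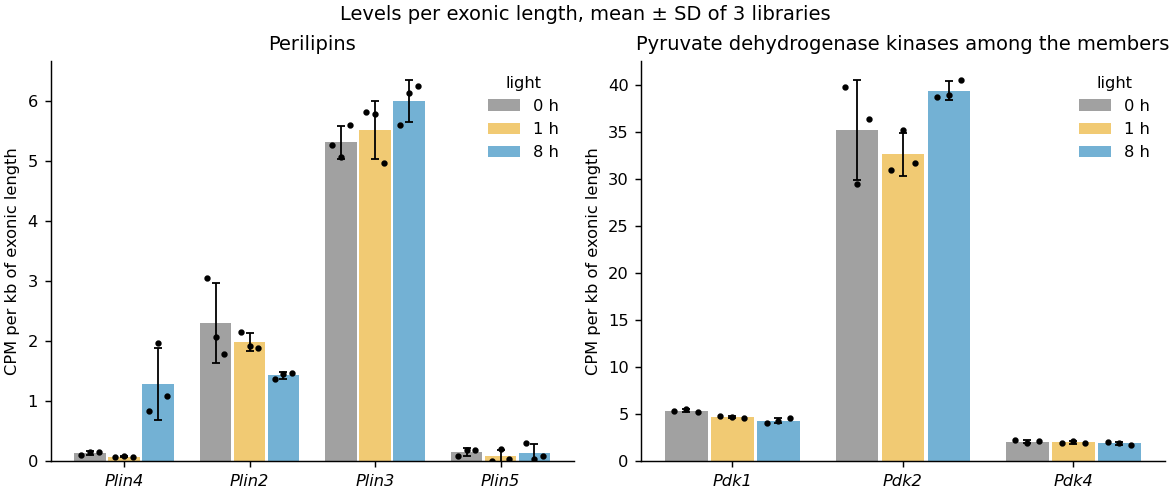
Level per exonic length (CPM per kb, linear axes from 0) of the 4 perilipins, left, and of the 3 kinases among the members, right, at 0, 1 and 8 h of light; bars are means of 3 libraries, error bars the SD and points the libraries. Plin4 at 8 h, at 1.29 CPM per kb, lies near Plin2, while Plin3 and Pdk2 are the highest shown in their panels at every light time.

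Among the 4 pyruvate dehydrogenase kinases, Pdk2 had the highest level per length at every light time. Per length, Pdk2 had 35.2 ± 5.29, 32.6 ± 2.29 and 39.4 ± 0.975 CPM per kb at 0, 1 and 8 h (SD, n = 3). Pdk3, the kinase that is no member, came next, at 17.5 ± 1.19, 15.2 ± 0.756 and 15.3 ± 0.981 CPM per kb. Of the 4 kinases together, Pdk2 made up 58.4%, 59.8% and 64.8% and Pdk3 29.2%, 27.9% and 25.1%. In CPM, Pdk2 had 93.5, 69.1 and 85.4 at 0 h, 72.7, 82.7 and 74.3 at 1 h, and 90.9, 91.4 and 95.1 at 8 h. The 8 h libraries lay above all 1 h libraries and overlapped with those of 0 h. Its log2 fold change at 8 h against 1 h was 0.27 ± 0.10 (SE; edgeR adjusted p = 0.373), and that at 8 h against 0 h was 0.17.

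Pdk1, a kinase that hypoxia raises in many cells, had 32.1, 33.3 and 31.6 CPM at 0 h, 29.1, 27.9 and 27.6 CPM at 1 h, and 24.7, 25.8 and 27.3 CPM at 8 h. No library of one light time overlapped with those of another. At 8 h it averaged 25.9 ± 1.33 CPM, against 32.3 ± 0.879 CPM at 0 h (n = 3 each, SD). This is a log2 fold change of -0.33 ± 0.08 (SE), and Pdk1 was not among the genes called in that comparison. At 1 h it averaged 28.2 ± 0.787 CPM, against those 32.3 CPM at 0 h, a log2 fold change of -0.20 ± 0.08 (SE) that did not pass the test (edgeR adjusted p = 1.00; unadjusted p = 0.0291). Against 1 h, its log2 fold change at 8 h was -0.13 ± 0.07 (SE; edgeR adjusted p = 0.685).

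Pdk4, the fasting isoform, had 7.63, 6.49 and 7.28 CPM at 0 h, 6.57, 7.35 and 6.61 CPM at 1 h, and 6.93, 6.50 and 5.95 CPM at 8 h. The 3 light times overlapped. The log2 fold change of Pdk4 was -0.13 at 8 h against 0 h (95% interval -0.45 to 0.18), -0.09 at 8 h against 1 h (95% interval -0.37 to 0.19) and -0.05 at 1 h against 0 h (95% interval -0.37 to 0.28). Per length it had 1.87 ± 0.142 CPM per kb at 8 h, the lowest of the 4 kinases.

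Cpt1a, the entry step of fatty acids into mitochondria, had 33.42, 30.8 and 31.6 CPM at 0 h, 30.1, 34.5 and 31.7 CPM at 1 h, and 34.9, 33.45 and 34.3 CPM at 8 h. The 8 h and 1 h libraries overlapped, and the lowest 8 h library lay barely above the highest of 0 h (with the scaling of the 6 libraries compared, these 2 groups overlapped). Its log2 fold change was 0.10 at 8 h against 0 h, 0.08 at 8 h against 1 h (95% interval -0.07 to 0.24) and 0.01 at 1 h against 0 h (95% interval -0.18 to 0.21). Angptl4, the lipase inhibitor, was scarce, with 11 to 39 reads per library. It had 1.87, 1.13 and 1.52 CPM at 0 h, 1.36, 1.71 and 1.65 CPM at 1 h, and 1.40, 1.72 and 2.23 CPM at 8 h, and the light times overlapped. The log2 fold change of Angptl4 was 0.30 at 8 h against 0 h, with a wide 95% interval of -0.35 to 0.96, and 0.15 at 8 h against 1 h (95% interval -0.43 to 0.72).

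Counted over the set, 8 of the 9 members could be tested in each comparison. At 8 h against 0 h, 1 of 8 passed the adjusted threshold of 0.05, which is Plin4 by the choice of the set, beside 0.587% of all genes tested. In 3 of 8 the groups did not overlap, Plin4 upward and Plin2 and Pdk1 downward, beside 16.1% of all genes. At 1 h against 0 h, edgeR called 0 of 8, beside 0.0132% of all genes (2 of 15164), with 2 of 8 at an unadjusted p under 0.05. Limma-voom and DESeq2 without its filter on low means also called 0 of 8. In 2 of 8 the groups did not overlap, Plin4 and Pdk1, both downward, beside 8.69% of all genes. For 8 h against 1 h, 1 of 8 passed, again Plin4, beside 0.603% of all genes. In 4 of 8 the groups did not overlap, Plin4 and Pdk2 upward and Plin2 and Pdk1 downward, beside 15.3% of all genes. The median log2 fold change of the 8 was 0.13 at 8 h against 0 h, -0.08 at 1 h against 0 h and 0.10 at 8 h against 1 h, beside medians of all genes within 0.01 of 0. Without Plin4, the members ran from -0.64 to 0.30 at 8 h against 0 h and from -0.20 to 0.15 at 1 h against 0 h.

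**Figure D3:**
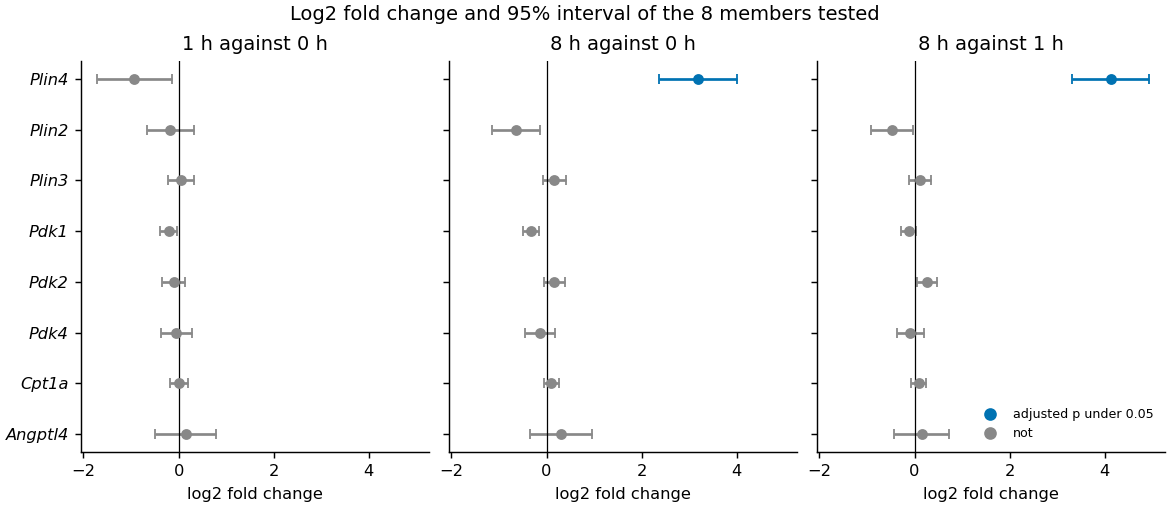
Log2 fold change (points) with its 95% interval (bars) of the 8 members tested, in each of the 3 comparisons; blue marks an adjusted p under 0.05 and the vertical line is 0. Plin4 stands at 3.18 and 4.12 in the comparisons of 8 h, and the other 7 members lie between -0.64 and 0.30.

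The rest of the fat-fuel pathway was read from 8 lists of 142 genes without the members, of which 128 were tested at 8 h. The lists were chosen with earlier results of these data known, so their shares beside all genes are a description only. At 8 h against 0 h, edgeR called 3 of 128 higher and 0 lower (2.34%, beside 0.587% of all genes). Of the 128, 20 had an unadjusted p under 0.05, and the median log2 fold change was -0.02. DESeq2 called 6 higher and 2 lower there, beside 262 of all 15330 genes. For 8 h against 1 h, edgeR called 2 of 128 higher and 0 lower (1.56%, beside 0.603%), with a median of 0.02. DESeq2 called 4 higher and 2 lower there, beside 199 of all 15586 genes. At 1 h against 0 h, edgeR called 0 of 127, with 7 at an unadjusted p under 0.05, and DESeq2 also called 0. All of the genes called by edgeR were transcriptional regulators, except for 1 lipid transporter.

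Hif3a, a member of the hypoxia-inducible factor family, had the largest change of the lists. It had 22.2, 23.9 and 29.4 CPM at 8 h, against 4.58, 5.26 and 5.16 CPM at 0 h, with a log2 fold change of 2.30 ± 0.14 (SE; edgeR adjusted p = 0.000155). Against the 4.64, 8.88 and 5.41 CPM of 1 h, the log2 fold change of Hif3a at 8 h was 1.95 ± 0.19 (SE; edgeR adjusted p = 0.000580). In both comparisons the groups were apart. Ppard, a nuclear receptor for fatty acids whose known targets in muscle include Pdk4 and Angptl4, rose to 104.4 ± 4.95 CPM at 8 h, against 78.2 ± 3.87 CPM at 0 h (n = 3 each, SD; log2 fold change 0.41; edgeR adjusted p = 0.0245). That call was lost on leaving out any 1 of the 6 libraries, with adjusted p between 0.0539 and 0.139. Klf15, a zinc-finger factor of fasting metabolism, rose to 37.5 ± 2.95 CPM at 8 h, against 24.6 ± 3.46 CPM at 0 h (n = 3 each, SD; log2 fold change 0.61; edgeR adjusted p = 0.0425). Without 0 h replicate 1 or 3 or any of the 8 h libraries it was not called, with adjusted p up to 0.223, nor was it with an Xist covariate or in a fit of all 9 libraries. These 3 were the calls of edgeR among 27 regulators tested at 8 h against 0 h, whose median log2 fold change was 0.07. DESeq2 called 5 of them, the same 3 with Nr3c1 and Ppargc1a. For 8 h against 1 h, DESeq2 and limma-voom each called Hif3a and Klf15, and edgeR called Hif3a.

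Of 14 genes of lipoprotein lipase and fatty acid uptake, edgeR called 0 at 8 h against 0 h, with 3 at an unadjusted p under 0.05 and a median log2 fold change of -0.04, and 1 at 8 h against 1 h. DESeq2 called 2 and 3 of them, Mfsd2a included each time. The 1 gene called by edgeR was Mfsd2a, which carries lysolipids with omega-3 fatty acids across the blood-brain barrier. It had 40.4, 47.3 and 35.3 CPM at 8 h, against 26.3, 27.9 and 28.7 CPM at 1 h, a log2 fold change of 0.56 ± 0.11 (SE; edgeR adjusted p = 0.0362). Without any 1 of the 1 h libraries, or without 8 h replicate 1 or 2, its adjusted p ran above the threshold, up to 0.167. The same held without the 2 libraries of highest Neurod6. Lpl, the lipase that Angptl4 inhibits, had the largest change of this list at 8 h against 0 h and did not pass, at 3.52 ± 1.31 CPM at 8 h, against 6.35 ± 5.98 CPM at 0 h (n = 3 each, SD; log2 fold change -0.95; edgeR adjusted p = 0.573).

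The enzyme and droplet lists held 0 calls at 8 h against 0 h in edgeR and limma-voom, and 1 in DESeq2, in the lipolysis list. Among 9 lipolysis genes, 1 had an unadjusted p under 0.05 and the median was 0.00. This was Pnpla2, also the call of DESeq2, adipose triglyceride lipase, which starts the breakdown of droplets. It had 26.3 ± 4.07 CPM at 8 h, against 17.6 ± 2.73 CPM at 0 h (n = 3 each, SD; log2 fold change 0.59; edgeR adjusted p = 0.127). Against the 16.6 ± 0.851 CPM of 1 h, its log2 fold change at 8 h was 0.66 ± 0.13 (SE) with an edgeR adjusted p of 0.0501, just short of the threshold. Among 9 other droplet genes, 1 had an unadjusted p under 0.05 and the median log2 fold change was -0.11. Their largest change was that of Hilpda, a droplet protein that inhibits Pnpla2, at -0.40 (edgeR adjusted p = 0.637).

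Of 16 esterification genes, 3 had an unadjusted p under 0.05, with a median log2 fold change of -0.02. The phosphatidate phosphatase Lpin3 changed most in this list, by 0.75, and did not pass (edgeR adjusted p = 0.677). Of 15 genes of pyruvate dehydrogenase and pyruvate handling, 2 had an unadjusted p under 0.05, with a median of 0.00. Pdp1, the phosphatase that undoes the work of the kinases, had the largest of these, with 790.7 ± 23.36 CPM at 8 h, against 676.7 ± 54.99 CPM at 0 h (n = 3 each, SD; log2 fold change 0.22; edgeR adjusted p = 0.266). Of 30 fatty acid oxidation genes, 2 had an unadjusted p under 0.05, with a median of -0.05, and the isomerase Eci2 differed most, by -0.27 (edgeR adjusted p = 0.363). Of 8 ketone body genes, 1 had an unadjusted p under 0.05, with a median of -0.10. That gene was the monocarboxylate transporter Slc16a1, at -0.34 (edgeR adjusted p = 0.237).

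The genes whose pattern lay nearest to Plin4 were found from log2 CPM centred on the 0 h mean, by the root-mean-square difference over the 9 libraries among 15080 genes tested in all 3 comparisons. In order they were Cdkn1a (0.70), a brake on the cell cycle, Tekt4 (0.87), a tektin of cilia and flagella, Hif3a (0.89), the zinc-finger repressor Zbtb16 (0.94) and the kinase Map3k6 (1.06). Their mean at 8 h was 1.85 to 2.56 above 0 h on this log2 scale, against 3.17 for Plin4. These genes were picked for nearness to Plin4 over all 9 libraries, so their high 8 h levels follow from the choice. At 1 h they stood between -0.01 and 0.40 on the same scale, while Plin4 stood at -0.82. All of these genes share the same libraries, and nothing is known from this of a shared control. The nearest to Pdk4 were Tmtc1, Cwc25 and Coq10a, at 0.044, 0.044 and 0.049, and those to Angptl4 were 2610015P09Rik, Epb4.1 and LOC101056043, at 0.117 to 0.143. These 6 lay within 0.18 of their 0 h level at each light time.

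**Figure D4:**
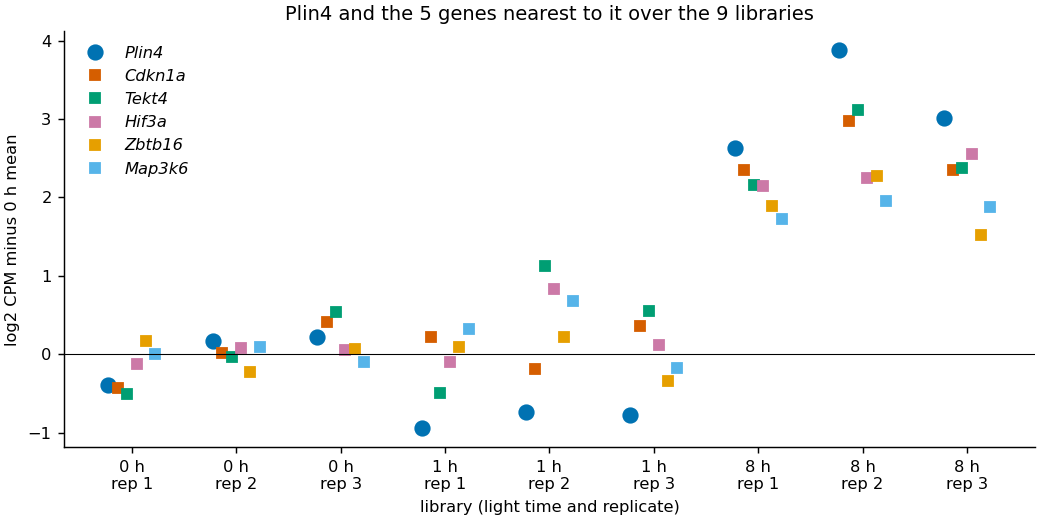
Log2 CPM minus the 0 h mean (vertical axis) of Plin4, circles, and of the 5 genes nearest to it, squares, in each of the 9 libraries. All 6 genes sit above 1.5 in the 8 h libraries, which follows from how they were picked, and Plin4 alone sits below -0.7 in all of the 1 h libraries.

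Plin4, Plin5 and Plin3 lie in this order on chromosome 17, with other genes, such as Sema6b and Dpp9, between Plin5 and Plin3. Plin5 (56111597 to 56117606) starts upstream of Plin4 on the same strand, with 1641 bases between them, and Plin3 (56278962 to 56290511) lies 169 kb away. Angptl4 (33774900 to 33781575) is on the same chromosome at a distance of 22.3 Mb. Within 200 kb of Plin4 there are 23 other genes in the tables, of which 18 were tested, and edgeR and limma-voom called 0 of them in any of the 3 comparisons. At an unadjusted p under 0.05 there were 2 at 8 h against 0 h, 1 at 8 h against 1 h and 0 at 1 h against 0 h, and DESeq2 called Hdgfrp2 in both comparisons of 8 h. Their log2 fold changes ran from -0.40 (Uhrf1) to 0.45 (Tnfaip8l1) at 8 h against 0 h, and from -0.16 (Chaf1a) to 0.49 (Tnfaip8l1) at 1 h against 0 h. Hdgfrp2 overlaps the end of Plin4 on the other strand by 17 exonic bases of the GENCODE annotation, and its log2 fold change was 0.34 ± 0.08 (SE; edgeR adjusted p = 0.121) at 8 h against 0 h. The sources used here give no strand setting, so reads in that overlap cannot be told apart.

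**Figure D5:**
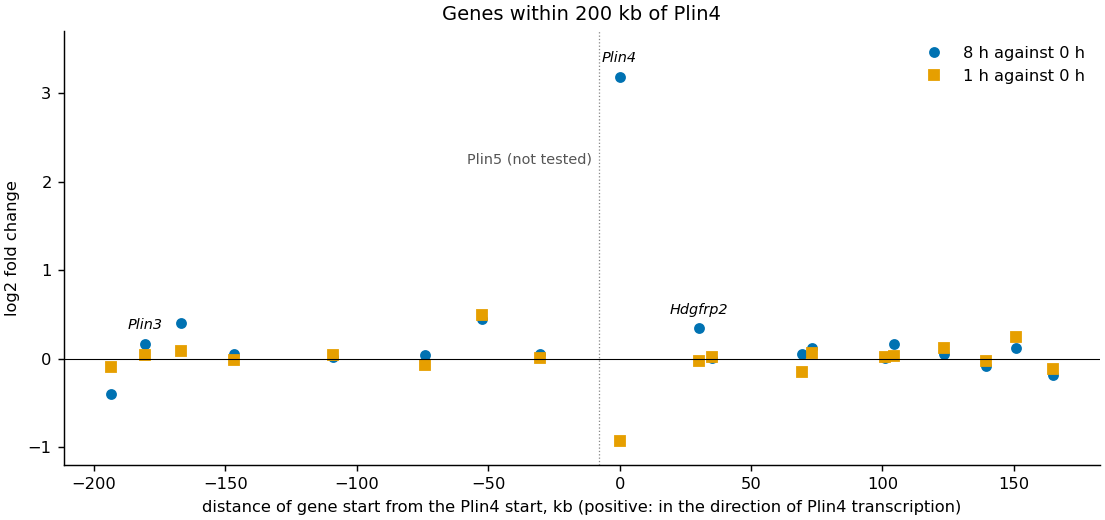
Log2 fold change at 8 h against 0 h (blue circles) and at 1 h against 0 h (orange squares) of the genes tested within 200 kb of Plin4, by the distance in kb of each gene's start from that of Plin4. Plin4 stands at 3.18 and -0.93, and its 18 neighbours lie between -0.40 and 0.49.

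Promoter windows of 300 bases (250 before to 50 after the annotated start, RefSeq, GRCm38.p6) were on hand for 8 of the members, 11 windows in all. Those of Plin4, Plin2 and Plin5 are shown, as the perilipin that set the choice, the one with the opposite sign and the nearest neighbour. They lie on the minus strand at chr17:56109733-56110032, chr4:86670010-86670309 and chr17:56117499-56117798, and are written 5′ to 3′ with capitals for every motif match on either strand.
Plin4: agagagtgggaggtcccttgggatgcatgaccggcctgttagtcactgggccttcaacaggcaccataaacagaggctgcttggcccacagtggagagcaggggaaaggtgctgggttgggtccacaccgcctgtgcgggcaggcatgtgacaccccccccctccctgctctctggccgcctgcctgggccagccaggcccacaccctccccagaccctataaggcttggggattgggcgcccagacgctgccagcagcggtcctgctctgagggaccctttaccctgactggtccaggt
Plin2: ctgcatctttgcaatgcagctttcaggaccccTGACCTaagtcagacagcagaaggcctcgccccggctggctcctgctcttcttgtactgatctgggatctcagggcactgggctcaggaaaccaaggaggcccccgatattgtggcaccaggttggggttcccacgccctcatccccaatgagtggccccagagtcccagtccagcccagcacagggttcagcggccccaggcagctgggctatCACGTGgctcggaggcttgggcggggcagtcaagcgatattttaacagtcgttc
Plin5: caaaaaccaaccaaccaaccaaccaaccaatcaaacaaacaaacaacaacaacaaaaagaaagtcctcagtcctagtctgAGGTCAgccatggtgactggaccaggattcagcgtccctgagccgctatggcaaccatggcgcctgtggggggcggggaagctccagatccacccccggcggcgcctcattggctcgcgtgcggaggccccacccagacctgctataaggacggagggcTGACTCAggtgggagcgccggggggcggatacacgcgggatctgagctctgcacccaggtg
The motifs were the glucocorticoid receptor core AGAACA and its full element, the nuclear receptor core AGGTCA and the PPAR element made from a pair of them, forkhead TGTTTAC, the hypoxia element ACGTG, the E-box CACGTG (which holds the hypoxia letters on both strands) and AP-1 TGANTCA. None of these letters are in the Plin4 window, whose GC content was 65.0%, against a median of 52.7% over all windows. The RefSeq start behind that window lies inside the deposited Plin4 span, whose 5′ end is at 56109955. Most of the window is thus within that span, and little sequence before the deposited start was searched. The Plin2 window holds a nuclear receptor core 218 bases before the start and an E-box at 4 bases before it. The Plin5 window shown holds a nuclear receptor core at 170 and an AP-1 match at 11 bases before the start. A second Plin5 window, not shown, holds a nuclear receptor core 13 bases after its start. Of 32851 RefSeq windows, 16.3% hold the nuclear receptor core, 19.6% the hypoxia element, 7.15% the E-box and 7.81% AP-1. Shares were 19.0% for the glucocorticoid receptor core, 3.65% for forkhead, 0.04% for the PPAR element and 0.009% for the full glucocorticoid element. Of the other members, a second window of Pdk1 holds the glucocorticoid receptor core at 153 and 138 bases before the start, Cpt1a a nuclear receptor core at 94 and Pdk2 an E-box at 126. The Cpt1a window (3323051 to 3323350) lies wholly inside the deposited span of its gene, which starts at 3322325. So does the second Pdk1 window (71874654 to 71874953), in a span that starts at 71873216. The second Plin5 window (56117249 to 56117548) lies inside a span whose 5′ end is at 56117606.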

How the data were processed

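RNA counts of 9 dLGN libraries, 3 each at 0, 1 and 8 h of light, were used. The deposited counts are raw counts per gene and library. The tools BWA and edgeR 3.14.0 and the build GRCm38 (mm10) are named, with no role, per the submitters' processing notes; the sources used here give no counting program, annotation, strand setting or handling of reads with several matches. The deposited density, a signal, is the count divided by exonic length and a library constant per the file headers and values, and was only compared with the counts. Of genes with a density over 1, at least 96.98% in each library fell within 1% of that rule, and genes of lower density were not checked. The authors' fold (a ratio of light over 0 h) and p-values are deposited too, and only their Plin4 folds are quoted. Exonic lengths are the deposited ones. Every gene in the deposited tables had at least 4 reads over its comparison, and 25 symbols stored as dates were restored by gene number.

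Differential expression was tested with edgeR 4.0.16 (glmQLFit and glmQLFTest, package defaults, TMM, filterByExpr) in R 4.3.3, with Benjamini-Hochberg adjustment over all genes tested and a threshold of 0.05, two-sided. The comparisons with 0 h used their own 6 libraries (15164 genes at 1 h and 15330 at 8 h), and 8 h against 1 h used all 9 (15586 genes). The procedure was tested on simulated counts with the same spread setting for every gene, so that test does not cover genes that spread as widely as Plin4 at 8 h. Levels are CPM with TMM scaling over all 9 libraries, as mean ± SD. Alternatives were DESeq2 1.42.0, limma-voom (limma 3.58.1), other scalings, no filter, a replicate block, an Xist covariate and leaving out libraries.

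The members and lists were chosen with earlier results of these data known. Named were all members, every list gene called by edgeR, and the regulators called by DESeq2 or limma-voom. The gene of each list with the largest change at 8 h against 0 h was named too. So were the nearest genes (5 for Plin4, 3 each for Pdk4 and Angptl4, prior count 0.5). Of 142 list genes, 132 are in the tables, matched by symbol or gene number; the others, among them Plin1 and Cidec, were not analysed here. No marker list of the 13 used had more than 1 call in any comparison, but the fat cell list had only 1 gene to test, Adipor2, and it was called in both comparisons of 8 h. Promoters were read from RefSeq (GRCm38.p6), and coding sequences from the GENCODE annotation and genome of GRCm38.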

Additional observations from a re-analysis of the deposited data

Results flagged for a closer look

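The direct test of 8 h against 1 h in edgeR called 4 of the genes described. For Plin4, which its 8 h libraries chose, so that this is no independent test, the log2 fold change between these times was 4.12, as it stood at 3.18 at 8 h and at -0.93 at 1 h against the shared 0 h libraries. For Hif3a it was 1.95, and for Mfsd2a it was 0.56, a call that was lost in 5 of 9 fits with a library left out. Adipor2 was named after its values were seen, as the only called gene of the fat cell marker list. The log2 fold change of Adipor2 was 0.47 at 8 h against 1 h (edgeR adjusted p = 0.0141) and 0.54 at 8 h against 0 h (edgeR adjusted p = 0.00256), with 126.5, 122.6 and 123.4 CPM at 8 h, against 80.2, 86.7 and 86.6 CPM at 0 h. Adipor2 was not called at 8 h against 1 h without 1 h replicate 1 or 3 or any 1 of the 8 h libraries, with adjusted p up to 0.0874.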

How the results depend on the processing

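As a description only, since its 8 h libraries chose it, the log2 fold change of Plin4 ran from 2.75 to 3.43 over 16 alternatives at 8 h against 0 h, and from 3.69 to 4.36 over the 19 at 8 h against 1 h that gave an adjusted p; DESeq2 gave none there or at 1 h because of its filter on low means. Of the other members, none was called in any alternative. Changes of sign were small. At 1 h against 0 h, leaving out 1 library gave log2 fold changes of -0.32 to 0.026 for Plin2 (above 0 without 0 h replicate 1), -0.056 to 0.27 for Angptl4 (below 0 without 0 h replicate 2) and -0.042 to 0.050 for Cpt1a (-0.016 without 0 h replicate 2, and lowest without 1 h replicate 2). Without the 2 libraries of highest Neurod6, Plin3 stood at -0.040 there. Angptl4 at 8 h against 1 h ran from -0.042 (without 8 h replicate 3) to 0.30.

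Calls over all genes at 1 h against 0 h numbered 2, against 14 in DESeq2 with or without its filter, 1 in limma-voom and with legacy set to FALSE in glmQLFit, 0 with the Xist covariate or without the 2 libraries, and 0 to 9 with a library left out. At 8 h against 0 h they numbered 90, against 262 in DESeq2 (253 without its filter) and 33 to 84 with a library left out. Those at 8 h against 1 h numbered 94, against 199 in DESeq2 (190), 28 without the 2 libraries and 20 to 127 with a library left out. List genes called at 8 h against 0 h numbered 3, against 8 in DESeq2 with or without its filter and 1 to 2 with a library left out. Those at 8 h against 1 h numbered 2, against 6 in DESeq2 (both ways), 4 without the filter on low counts, 1 without the 2 libraries and 1 to 5 with a library left out. The legacy and DESeq2 filter settings were chosen after seeing the data, and the causes were not tested.

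Deviations of same-numbered libraries correlated at 0.033, 0.130 and 0.135 between 8 h and 0 h (replicates 1 to 3), where each 8 h library was closest to its own number, a hint from the data and not the design. They correlated at -0.102, -0.199 and 0.164 between 1 h and 0 h, and at 0.072, -0.165 and 0.179 between 8 h and 1 h. Since not every pair exceeded 0.1 and the labels name no shared litter or day, the numbers were not taken as pairs. With the replicate block, 0 genes were called at 1 h against 0 h and 158 at 8 h against 0 h. Depth limits Plin5, Angptl4 and the low Plin4 levels at 0 and 1 h, and p-values measure only the spread between these 3 samples per group.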
